A study of Mus musculus with 9 samples.

Results

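Histone lactylation is the attachment of a lactyl group, derived from lactate, to lysine residues of histones. The candidates for adding and removing it are enzymes first known from acetylation. The RNA of 10 such genes was followed here in mouse muscle cells, and all 10 were found among the 46078 genes listed for cultured cells and the 38293 listed for muscle tissue. They were chosen by name as enzymes reported to write or erase the mark. Their measured values were not used for the choice, though earlier results of these data were known when it was made. The set holds 3 acyltransferase genes (Ep300, Crebbp and Kat8), 4 genes of class I histone deacetylases (Hdac1, Hdac2, Hdac3 and Hdac8) and 3 sirtuin genes (Sirt1, Sirt2 and Sirt3).

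Acyltransferases transfer an acyl group from coenzyme A to lysine. Class I deacetylases remove it with a zinc ion in the active site, and sirtuins remove it while consuming NAD, which ties their activity to the redox state of the cell. In muscle, p300 and CBP are known as coactivators of the myogenic factors, and HDAC1 as a partner of MyoD in undifferentiated myoblasts. RNA levels say nothing of the amount, the location or the activity of these proteins.

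The study compared primary myoblasts (MB), the cultured precursors of muscle fibers, with myotubes (MT), the fused cells into which they develop, and with gastrocnemius muscle (GAS), the main calf muscle. GAS was taken from female mice of 8 to 12 weeks (n = 3). MT had spent 3 days in differentiation medium and, like control MB, received the vehicle PBS (n = 2 each), and a further group of MB received 10 mM sodium-L-lactate, in overnight incubations (n = 2). The labels give the strain as C57BL/6 for every library and name no altered allele, and the study's methods give the substrain of the mice as C57Bl6/J. The labels call the libraries of a group biological replicates without naming the animals or cultures behind them, so p-values measure the spread between these libraries only. GAS is a whole tissue that also holds nonmuscle cells, and MT cultures can retain unfused cells. In bulk samples such as these, fewer cells of a type and less RNA per cell cannot be told apart.

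Between 19307793 and 19941574 reads were counted per GAS library and between 5198247 and 10839516 per library of cultured cells, and a count of 3 corresponded to at most 0.533 CPM, the count scaled to the size and composition of the library by the TMM method. The marker genes followed the labels in direction, though not all of them passed the threshold for a difference given below. Of 8 myoblast and myotube markers, 5 were called higher and 1, Pax7, lower in MT than in MB. The myoblast markers Myf5 (mean 14.3 CPM in MT, 29.6 in MB) and Myod1 (259 and 944) were lower without being called. Of 6 proliferation markers 5 were called lower, with a summed level of 339 to 352 CPM in MT and 1507 to 1948 CPM in MB. One library stood apart: in MT replicate 1 a count was found for 28599 genes, against 15548 to 17965 in the other libraries of cultured cells. The markers of fibroblast-like cells also differed. Their summed level was 1875 to 13536 CPM in MT, highest in replicate 1, and 2.17 to 2.7 CPM in MB, and Col1a1 and Dcn were called higher, out of 5 listed genes of which 3 could be tested. Itgam, out of 5 immune markers of which 2 could be tested, was also called higher in MT, at 3.05 and 4.1 CPM against 0.123 and 0.241 CPM. Endothelial and adipocyte markers reached at most 16.8 and 3.72 CPM in sum in MT and 0.49 and 0.121 CPM in MB, and none of them could be tested. The part of these cells, and of the lower proliferation, in the differences below was not tested.

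Hdac1 was the only one of the 10 genes with a called difference between MT and MB, and 1 property of its sequence bears on how its reads were counted. The gene lies on chromosome 4 (129516104 to 129542713, minus strand, mm10). A processed pseudogene, Gm10093, lies on chromosome 17 (78491582 to 78493025) and is a near copy of its mRNA. Over 1444 bases that align with the coding sequence of Hdac1, 1435 were identical (99.4%), and the longest run without a difference was 450 bases. Hdac2, the closest functional relative, shared 75.2% of the aligned coding bases, with a longest identical run of 17 bases. The 90 bases below are coding bases 393 to 482 of Hdac1, all in exon 5, where 6 of the 9 differences from the pseudogene fall together. They are shown because a read from here can tell Hdac1 from Gm10093, while a read from the identical stretches cannot. The transcripts of 2 further pseudogenes, AC125456.1 and Gm4864, aligned with those of Hdac1 at 96.26% over 1311 bases and 94.43% over 1329 bases. Neither is among the genes with listed counts, so only the reads of Gm10093 could be examined. Capitals in Hdac1 and Gm10093 mark the bases in which these differ from each other, and capitals in Hdac2 the 20 bases in which it differs from Hdac1. All are written 5′ to 3′ from GENCODE M21 transcripts, for Hdac1 chr4:129522975-129523064 (minus strand), for Gm10093 chr17:78491974-78492063 (plus strand) and for Hdac2 chr10:36989187-36989276 (plus strand, also exon 5).
Hdac1: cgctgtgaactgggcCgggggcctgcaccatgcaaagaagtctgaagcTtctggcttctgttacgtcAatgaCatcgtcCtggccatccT
Gm10093: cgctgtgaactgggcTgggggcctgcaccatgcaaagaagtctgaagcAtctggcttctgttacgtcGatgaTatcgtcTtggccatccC
Hdac2: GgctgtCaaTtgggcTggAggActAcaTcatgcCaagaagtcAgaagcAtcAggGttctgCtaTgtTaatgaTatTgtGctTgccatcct

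MT were compared with MB to ask which of these enzymes change in expression during myogenic differentiation. A difference was called at an adjusted p under 0.05 with an absolute log2 fold change (log2FC) over 0.5, by edgeR's quasi-likelihood test with Benjamini-Hochberg adjustment over all 12921 genes tested. All 10 genes passed the filter on low counts. Of these, 1 was called lower in MT, Hdac1, and 0 were called higher, against 6.86% of all tested genes called lower and 11.0% called higher. At an unadjusted p under 0.05 the count was 2 (Hdac1 and Sirt2), against 4197 of all 12921 genes tested. DESeq2 called 1 gene, Hdac1, where it called 1729 higher and 1292 lower of all tested genes. The median log2FC of the 10 genes was -0.33, with 4 values above 0 and 6 below, and that of all tested genes was 0.072. The 3 acyltransferase genes all had a log2FC below 0 and the 3 sirtuin genes all above 0.

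**Figure D1:**
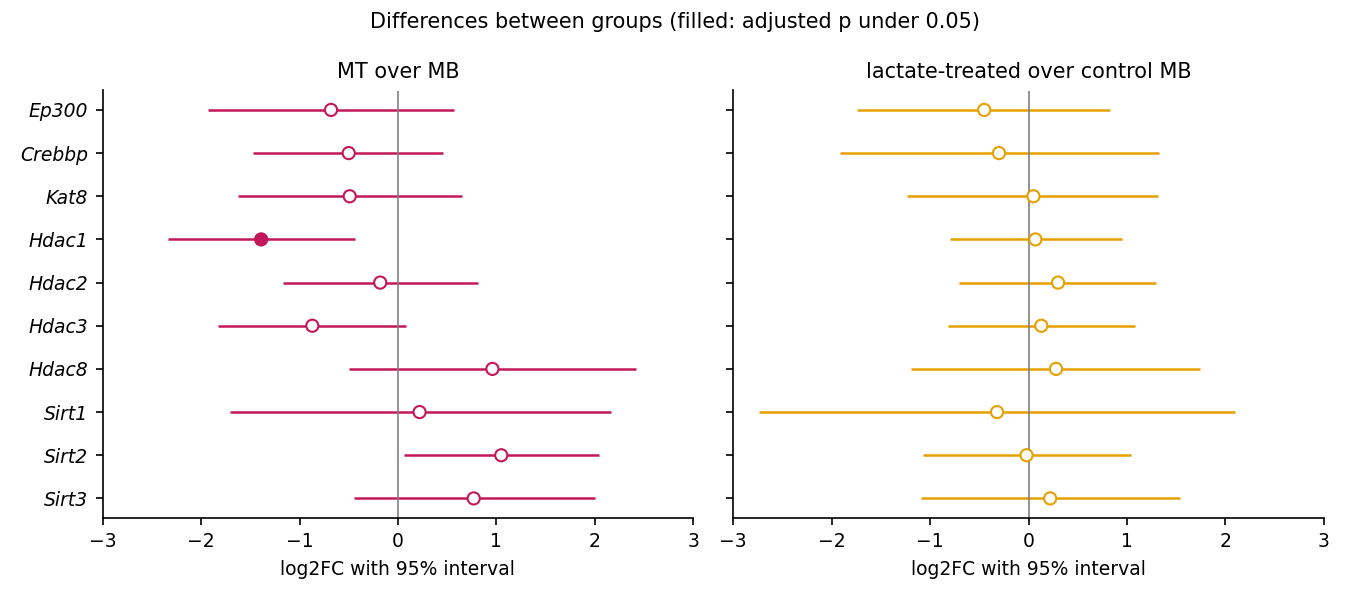
Log2FC (points) with 95% intervals (lines) from edgeR for the 10 genes, for MT over MB (left, n = 2 each) and for lactate-treated over control MB (right, n = 2 each), with filled points for an adjusted p under 0.05. On the left, the intervals of Hdac1 (-2.34 to -0.44) and Sirt2 (0.06 to 2.04) exclude 0, and only Hdac1 is filled; on the right every interval includes 0.

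Among the class I deacetylases, HDAC1 and HDAC2 are the interchangeable catalytic subunits of the NuRD, SIN3 and CoREST corepressor complexes. Hdac1 was at 101 and 103 CPM in the MB libraries and at 31.9 and 46.9 CPM in the MT libraries. The groups were well separated, and the MB libraries were nearly equal. Hdac1 fell by 1.39 on the log2 scale (SE 0.43, edgeR adjusted p = 0.0473), so that its level was 2.62-fold lower in MT.

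This call stood close to the threshold. Without MT replicate 1 the log2FC of Hdac1 was -1.20 with an adjusted p of 0.43, and without MT replicate 2 it was -1.62 with an adjusted p of 0.176 (edgeR; the lone MT library is then assumed to vary like the MB libraries). Gm10093 had 177 and 176 counts in MB and 124 and 82 in MT, which is 17.1% to 22.5% of the reads of Hdac1 and Gm10093 together. Its own log2FC was -1.13 (SE 0.52, adjusted p = 0.159). When its reads were added to those of Hdac1, the log2FC was -1.34 and the adjusted p 0.0503. The adjusted p was also over the threshold with no filter on low counts (0.0657), with at least 10 counts required in every library (0.064) and with the replicate number as a block (0.0814). The log2FC was below 0 in each of these fits.

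Hdac2 was at 34.9 and 48.6 CPM in MB and at 35.1 and 38.0 CPM in MT. The groups overlapped, and the log2FC of -0.18 (SE 0.45, adjusted p = 0.817) left a 95% interval of -1.17 to 0.81. Hdac3 encodes the catalytic subunit of the NCoR and SMRT corepressor complexes. It was at 200 and 153 CPM in MB and at 91.7 and 103 CPM in MT, lower in both MT libraries than in either MB library, with a log2FC of -0.87 (SE 0.43) that did not pass (adjusted p = 0.189). Hdac8, an X-linked gene for a class I enzyme that acts outside these complexes and deacetylates the cohesin subunit SMC3, was low throughout. It was at 4.04 and 5.42 CPM in MB and 10.8 and 7.25 CPM in MT, and its log2FC of 0.96 (SE 0.66) did not pass either (adjusted p = 0.343).

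Ep300 and Crebbp encode p300 and CBP, a pair of large paralogous coactivators, of which p300 was the first proposed writer of histone lactylation. Their coding sequences matched in 67.1% of aligned bases, with no identical run over 29 bases. Ep300 was at 31.3 and 22.1 CPM in MB and at 9.75 and 24.7 CPM in MT, so that the groups overlapped and the low value came from MT replicate 1. Crebbp was at 48.4 and 59.4 CPM in MB and at 38.9 and 36.6 CPM in MT, lower in both MT libraries. Kat8 encodes MOF, the acetyltransferase of the MSL and NSL complexes, which acts on histone H4, and was at 29.4 and 19.8 CPM in MB and 14.8 and 21 CPM in MT. The log2FC of the 3 genes lay between -0.68 and -0.49, with SEs of 0.44 to 0.57 and adjusted p of 0.439 to 0.553 (edgeR). Their count at an unadjusted p under 0.05 was 0, as was the number called by DESeq2. Over all 12921 genes tested, 4197 were under that p, and DESeq2 called 1729 higher and 1292 lower.

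Sirtuin 2 is mainly cytoplasmic, with tubulin and histone H4 among its known substrates. Sirt2 was at 74.3 and 53.5 CPM in MB and at 105 and 166 CPM in MT. Both MT libraries were above both MB libraries, by 2.07-fold in the fit, and the log2FC of 1.05 (SE 0.45) had an unadjusted p of 0.0393 and an adjusted p of 0.132 (edgeR), which did not pass. Sirt3, which encodes the main deacetylase of mitochondria, was at 13.7 and 8.2 CPM in MB and at 17.3 and 20.9 CPM in MT, again without overlap, with a log2FC of 0.77 (SE 0.55, adjusted p = 0.364). Sirt1, which encodes the nuclear sirtuin that deacetylates histones and many transcription factors, was at 1.47 and 7.47 CPM in MB and at 6.78 and 3.05 CPM in MT. Its log2FC of 0.22 (SE 0.88, adjusted p = 0.889) had no stable sign, being -0.58 without MT replicate 1 and 1.69 without MB replicate 2.

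Over the 10 genes, both MT libraries were above both MB libraries for 3 (Hdac8, Sirt2 and Sirt3) and below for 3 (Crebbp, Hdac1 and Hdac3), and the groups overlapped for 4. Among all tested genes, 32.9% were separated upward in this way and 29.2% downward, so that the share of separated genes among the 10 was close to that background. The span of Sirt2 overlaps that of Nfkbib on the opposite strand over 778 bases, and that of Sirt3 overlaps Ric8a (707 bases) and Psmd13 (342 bases) in the same way. Whether strand was used in counting is not given in the sources used here, so reads from these stretches may belong to either gene.

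**Figure D2:**
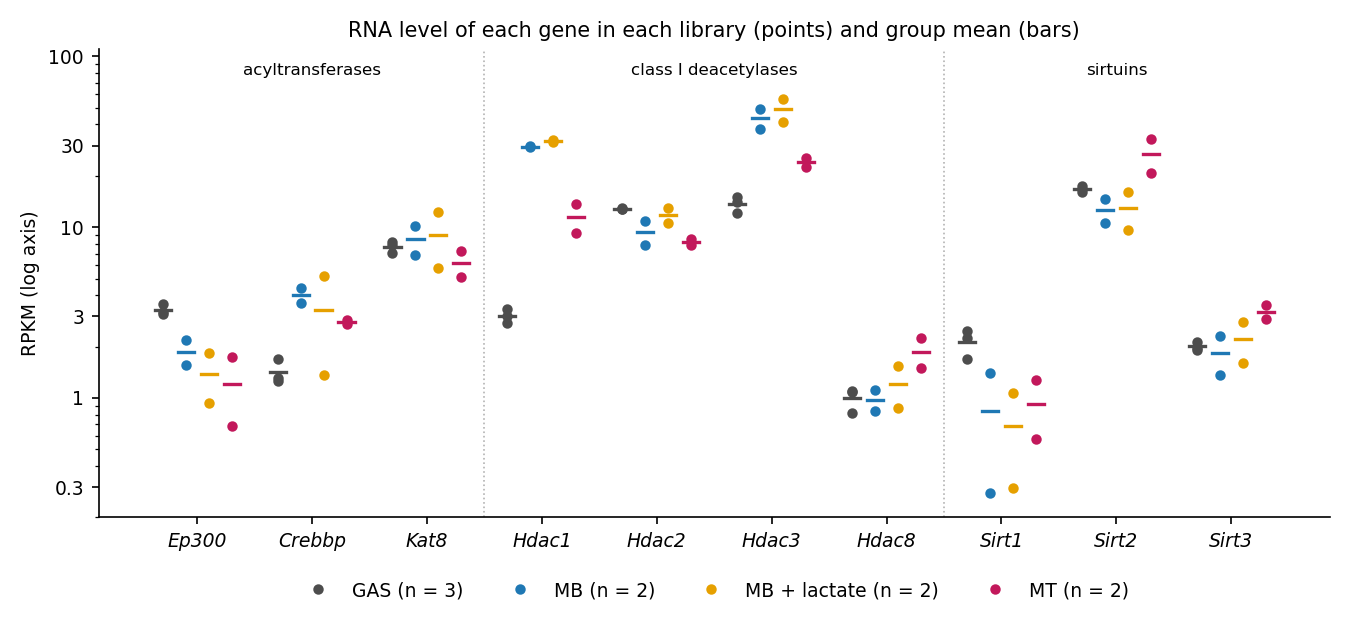
RPKM (log axis) of the 10 genes in each of the 9 libraries (points), with the group mean as a horizontal bar, for GAS (n = 3), MB (n = 2), lactate-treated MB (n = 2) and MT (n = 2). Hdac1 lies near 30 in all 4 MB libraries, between 9.25 and 13.6 in MT and between 2.74 and 3.33 in GAS, and Sirt1 in MB and lactate-treated MB splits into a library near 0.3 and one above 1 in each group.

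Levels of different genes were compared as RPKM, that is CPM per kilobase of exonic length. In MB the order was Hdac3 (43.5 ± 8.31 RPKM, SD, n = 2), Hdac1 (29.6 ± 0.423), Sirt2 (12.7 ± 2.91), Hdac2 (9.33 ± 2.16), Kat8 (8.51 ± 2.36), Crebbp (3.98 ± 0.575), Ep300 (1.87 ± 0.456), Sirt3 (1.84 ± 0.655), Hdac8 (0.978 ± 0.202) and Sirt1 (0.839 ± 0.796). The ranges of Sirt2 and Hdac2, Hdac2 and Kat8, Ep300 and Sirt3, and Hdac8 and Sirt1 overlapped, so that these neighbours were not separated. Of the 10484 genes with a mean over 1 RPKM in MB, 87.2% were below Hdac3 and 81.2% below Hdac1.

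In MT Sirt2 came first (26.9 ± 8.55 RPKM, SD, n = 2), with a range that overlapped that of Hdac3 (24.0 ± 1.98). They were followed by Hdac1 (11.4 ± 3.09), Hdac2 (8.17 ± 0.467), Kat8 (6.19 ± 1.51), Sirt3 (3.19 ± 0.424) and Crebbp (2.79 ± 0.117), none of which overlapped with its neighbours. Hdac8 (1.86 ± 0.518), Ep300 (1.21 ± 0.739) and Sirt1 (0.922 ± 0.494) were lowest and overlapped in that order. In MT replicate 1 Hdac3 (22.6 RPKM) was above Sirt2 (20.8 RPKM), and in replicate 2 it was below (25.4 against 32.9 RPKM).

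GAS was not tested against the cultured cells because its libraries started from poly(A) RNA and those of the cells used Smart-seq2, a protocol that amplifies full-length cDNA, and tissue and protocol cannot be told apart. Within GAS the order was Sirt2 (16.8 ± 0.646 RPKM, SD, n = 3), Hdac3 (13.7 ± 1.5), Hdac2 (12.8 ± 0.0641), Kat8 (7.7 ± 0.615), Ep300 (3.29 ± 0.246), Hdac1 (3.03 ± 0.294), Sirt1 (2.13 ± 0.392), Sirt3 (2.0 ± 0.103), Crebbp (1.41 ± 0.227) and Hdac8 (1.0 ± 0.16). The ranges overlapped for Hdac3 and Hdac2, for Ep300 and Hdac1, and for Sirt1 and Sirt3. Hdac1 took the sixth place, with counts of 186, 206 and 221 in the GAS libraries, and 36.1% of the 9874 genes with a mean over 1 RPKM were below it. Sirt2 was above 81.5% of these genes. The GAS libraries also held markers of endothelial cells (138 to 154 CPM summed over 5 genes), fibroblast-like cells (339 to 434), adipocytes (27.8 to 51.7) and immune cells (18.4 to 19.9), and their part in the levels of the 10 genes was not tested.

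The ratio of Hdac1 to Hdac2 within a library does not depend on the scaling between libraries. Between GAS and the cultured cells, tissue and protocol still cannot be told apart, for this ratio and for the shares and ratios below. Hdac1 over Hdac2 was 0.214, 0.235 and 0.261 in GAS, 1.18 and 1.6 in MT, 3.76 and 2.76 in MB, and 2.5 and 2.98 in lactate-treated MB. By RPKM, Hdac2 was thus the higher of the pair in each GAS library and Hdac1 in each library of cultured cells. In MT replicate 1 this order rested on the exonic lengths, 3445 bases for Hdac1 and 4474 for Hdac2. The counts there were 428 for Hdac1 and 471 for Hdac2. Between MT and MB the ratio differed by -1.23 on the log2 scale, MT minus MB, without overlap. A two-sided exact permutation test gave p = 0.333, which is the smallest that 2 libraries against 2 allow. Gm10093 held 2.6% to 6.4% of the joint reads of Hdac1 and Gm10093 in GAS, against 15.4% to 22.5% in the cultured cells.

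**Figure D3:**
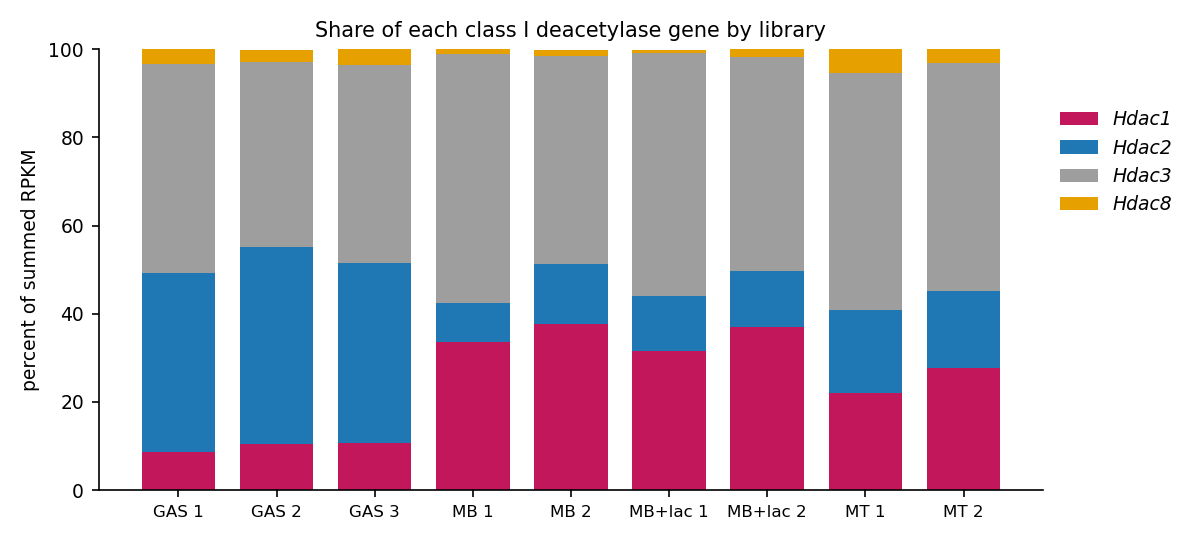
Percent of the summed RPKM of the 4 class I deacetylase genes that each gene holds, stacked per library for the 3 GAS, 2 MB, 2 lactate-treated MB and 2 MT libraries. Hdac3 holds 41.9% to 56.5% in every library, while Hdac1 holds 8.7% to 10.7% in GAS and 31.5% to 37.6% in the MB and lactate-treated MB libraries, with MT between at 22.1% and 27.8%.

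The share of Hdac3 in the summed class I RPKM varied little, from 41.9% to 56.5% over the 9 libraries, while Hdac1 and Hdac2 divided the rest differently. Hdac2 held 40.5% to 44.7% in GAS, 18.7% and 17.3% in MT, and 8.9% and 13.6% in MB. The sum itself was 87.4 and 79.6 RPKM in MB, 41.9 and 49.0 RPKM in MT and 28.8 to 31.7 RPKM in GAS. It was 0.543 times as high in MT as in MB without overlap (exact permutation p = 0.333, two-sided). That p is the smallest that the design allows. The summed sirtuin RPKM was 17.3 and 13.4 in MB and 25.0 and 37.0 in MT, of which Sirt2 supplied 14.7 and 10.6 in MB and 20.8 and 32.9 in MT, and none of the 3 sirtuin genes was called. The summed acyltransferase RPKM was 15.9 and 12.8 in MB and 8.68 and 11.7 in MT.

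The ratio of Ep300 to Crebbp was 2.72, 2.48 and 1.91 in GAS and below 1 in each library of cultured cells. It was 0.238 and 0.639 in MT, 0.612 and 0.352 in MB, and 0.687 and 0.354 in lactate-treated MB, so that the 3 cultured groups overlapped.

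**Figure D4:**
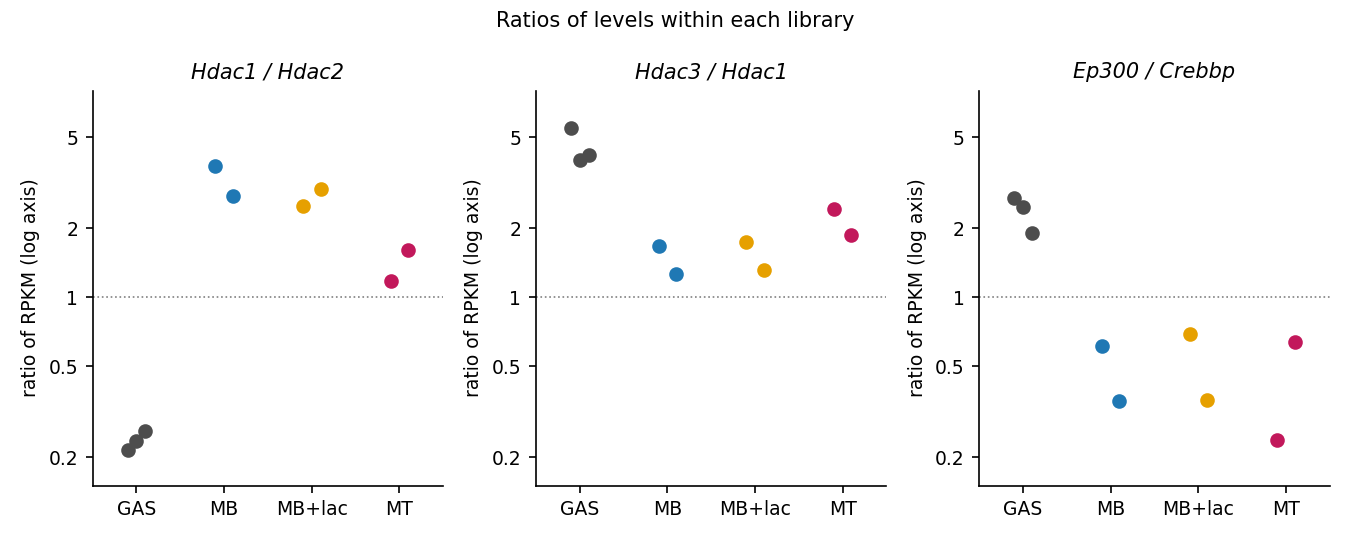
Ratios of RPKM (log axes) within each of the 9 libraries (points) by group, for Hdac1 over Hdac2, Hdac3 over Hdac1 and Ep300 over Crebbp, with a dotted line at 1. Hdac1 over Hdac2 lies between 0.214 and 0.261 in GAS and above 1 in all 6 cultured libraries, and Ep300 over Crebbp lies between 1.91 and 2.72 in GAS and below 1 in all 6.

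Lactate-treated MB were compared with control MB to ask whether added lactate alters the expression of the enzymes thought to handle the mark. None of the 10 genes was called by edgeR, and 0.0% of the 11804 genes tested were, at the adjusted threshold as well as at a nominal p under 0.01. At an unadjusted p under 0.05 there were 5 genes in all and 0 of the 10, and DESeq2 called 0 of the 10. Those 5 are far below a share of 0.05 of the genes tested. With the replicate number as a block in edgeR, 166 genes in all had an unadjusted p under 0.05. The nominal count over all genes depended on the fit. It was 178 higher and 1 lower without MB replicate 2, 19 higher and 0 lower without MB replicate 1, and 7 higher and 6 lower with the replicate number as a block, and 0 of the 10 genes were among them. The study, which also used edgeR with that nominal p and log2FC limit, reported a small group of differing genes and states no covariates. The log2FC of the 10 genes ranged from -0.45 for Ep300 to 0.30 for Hdac2, with a median of 0.06, against -0.003 over all tested genes, and their adjusted p was 1.0.

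The intervals show how much the fit without a block leaves possible. Their width includes the split by replicate number described below, where deviations of libraries with the same number correlated at 0.7017. For Hdac1 the levels were 101 and 103 CPM in control and 111 and 108 CPM in treated MB, and the 95% interval of the log2FC was -0.80 to 0.95. Those of Hdac2 (-0.71 to 1.30) and Hdac3 (-0.82 to 1.08) were of similar width. For the acyltransferases they were wider, from -1.74 to 0.83 for Ep300, from -1.92 to 1.33 for Crebbp and from -1.23 to 1.32 for Kat8. For Sirt1 it was -2.74 to 2.10, for Sirt2 -1.07 to 1.04, for Sirt3 -1.09 to 1.54 and for Hdac8 -1.19 to 1.74. A change of 1 log2 unit in either direction therefore lay outside the interval for Hdac1 downward and upward, and inside it in at least 1 direction for the other 9 genes.

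Hdac1 was the only gene of the 10 whose treated libraries did not overlap with the controls, both being higher, where 4.28% of all tested genes were separated upward and 6.84% downward. The spread between replicates was wide for the acyltransferase genes. Ep300 was at 31.3 and 22.1 CPM in control and 13.4 and 26.1 CPM in treated MB, and Crebbp at 48.4 and 59.4 against 18.4 and 70.0 CPM. Among the 4 MB libraries both were lowest in lactate replicate 1, which had 76 counts of Ep300 and 105 of Crebbp. Set against the control of the same number, Ep300 differed by -1.23 in replicate 1 and 0.24 in replicate 2 on the log2 scale, and Crebbp by -1.39 and 0.24. The sign was the same in both replicates for 4 of the 10 genes (Hdac1, Hdac3, Hdac8 and Sirt3).

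Several genes separated by replicate number rather than by treatment. Sirt1 was at 1.47 and 1.58 CPM in control and treated replicate 1, and at 7.47 and 5.69 CPM in replicate 2. These are 12, 9, 62 and 32 counts, and the 95% Poisson intervals of the first and the second (6.2 to 21 and 4.12 to 17.1 counts) do not reach those of the others (47.5 to 79.5 and 21.9 to 45.2), where such intervals cover counting error only. Kat8 was at 29.4 and 35.7 CPM in the libraries numbered 1 and at 19.8 and 16.7 CPM in those numbered 2, and Sirt3 at 13.7 and 16.7 against 8.2 and 9.6 CPM. In all, both libraries numbered 1 were above both numbered 2 for 4 of the 10 genes (Kat8, Hdac3, Sirt2 and Sirt3) and below for 3 (Crebbp, Hdac8 and Sirt1), against 34.5% and 37.5% of all tested genes. The counts were near that background, so that the split was not particular to the 10 genes. Reads on a pair of ribosomal RNA genes made up 11.03% and 15.61% of the counts in the MB libraries numbered 1 and 0.51% and 0.58% in those numbered 2, and the part of this in the split was not tested.

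The other genes of the pathway were taken from lists by function. Of 11 further lysine acetyltransferase genes, 1 was called higher and 1 lower in MT than in MB. Over all tested genes 11.0% were called higher and 6.86% lower, so that these counts were near that background. Kat2a and Kat2b encode the paralogous GCN5 and PCAF, catalytic subunits of the SAGA and ATAC coactivators. Kat2a was at 127 and 113 CPM in MB and at 25.8 and 40.3 CPM in MT, a log2FC of -1.89 (SE 0.44, edgeR adjusted p = 0.0154). Kat2b was at 2.57 and 2.53 CPM in MB and at 17.1 and 8.78 CPM in MT, a log2FC of 2.37 (SE 0.69, adjusted p = 0.0387). The paralogs thus changed in opposite directions, while neither Ep300 nor Crebbp was called.

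Of 7 zinc-dependent deacetylase genes outside class I, 3 were called higher in MT and 0 lower, against 11.0% and 6.86% of all tested genes. DESeq2 called 3 of the 7 higher and 1 lower, against 1729 higher and 1292 lower of all 12921 genes tested. Hdac4, which encodes a class IIa enzyme known to repress MEF2 factors, was at 29.8 and 34.3 CPM in MB and at 89.7 and 107 CPM in MT (log2FC 1.61, SE 0.42, adjusted p = 0.025). Hdac11, the gene of the only class IV enzyme, known as a remover of long fatty acyl groups, was at 2.7 and 0.603 CPM in MB and at 14.6 and 26.7 CPM in MT (log2FC 3.58, SE 0.80, adjusted p = 0.0122). Hdac9, also of class IIa, was at 0.0 and 0.241 CPM in MB, below the level of 3 counts, and at 16.9 and 3.18 CPM in MT (adjusted p = 0.00915). The 4 remaining sirtuin genes, Sirt4 to Sirt7, had log2FC of -0.56 to 0.54. None was called by edgeR or DESeq2, with 0 at an unadjusted p under 0.05, against 4197 of all 12921 genes tested.

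**Figure D5:**
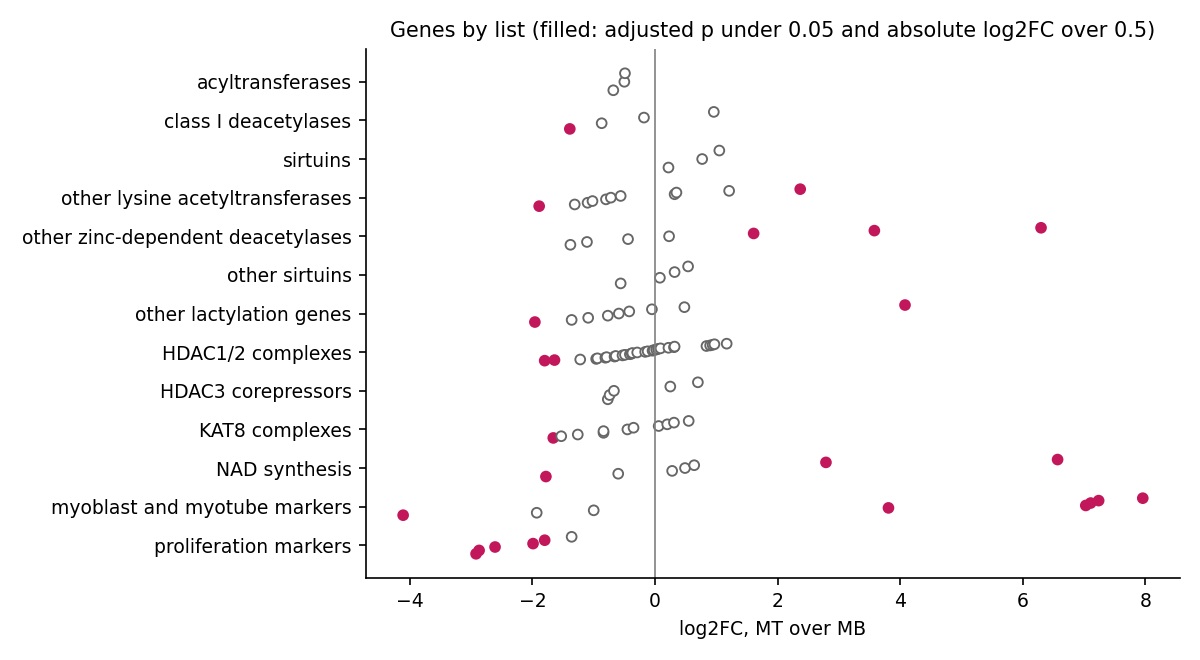
Log2FC of MT over MB (x axis) for each tested gene (points) of the 3 groups of candidate enzymes and of 10 lists by function, 1 row per list, filled where the adjusted p was under 0.05 and the absolute log2FC over 0.5. Hdac1 is the single filled point among the 10 candidates, the myoblast and myotube markers hold the largest differences, up to 7.96, and the proliferation markers lie between -2.92 and -1.36.

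Among 9 further genes for candidate lactylation enzymes, lactyl-CoA sources and readers, 1 was called higher and 1 lower. These counts were near the shares of all tested genes, 11.0% higher and 6.86% lower. Acss2, which encodes the acetyl-CoA synthetase of cytosol and nucleus, was at 7.6 and 3.37 CPM in MB and at 115 and 71.5 CPM in MT, a log2FC of 4.08 (SE 0.61, edgeR adjusted p = 0.00174). Suclg2, the GTP-forming subunit of succinyl-CoA synthetase, was at 77.8 and 77.5 CPM in MB and at 14.4 and 26.2 CPM in MT, a log2FC of -1.96 (SE 0.47, adjusted p = 0.0171). The list had a median log2FC of -0.59, and Aars and Aars2, alanyl-tRNA synthetase genes proposed as lactyltransferases, had values of -1.09 (SE 0.50, adjusted p = 0.158) and -0.77 (SE 0.49, adjusted p = 0.303).

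Of 30 subunit genes of the HDAC1 and HDAC2 complexes, 0 were higher and 2 lower in MT, Mbd3 and Mta2, both of the NuRD complex, where 6.86% of all tested genes were called lower, and the median log2FC was -0.22. Mta2 was at 397 and 320.2 CPM in MB and at 91.1 and 143 CPM in MT (log2FC -1.64, SE 0.47, edgeR adjusted p = 0.0352). Mbd3 was at 80.5 and 59.1 CPM in MB and at 13.0 and 28.5 CPM in MT (log2FC -1.80, SE 0.51, adjusted p = 0.0358). Of the 5 genes of the HDAC3 corepressor complex none was called by edgeR or DESeq2, with 0 at an unadjusted p under 0.05. Over all 12921 genes tested, 4197 were under that p. Of 11 genes of the KAT8 complexes, 1 was lower (Hcfc1, log2FC -1.66, SE 0.47, edgeR adjusted p = 0.0328). DESeq2 called 3 of the 11 lower, against 1292 of all 12921 genes tested. The edgeR count of 1 was near the 6.86% of all tested genes called lower.

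Genes of NAD synthesis, which supplies the cosubstrate of the sirtuins, were called in both directions, 2 higher and 1 lower among 7 tested of 9. The shares of all tested genes were 11.0% higher and 6.86% lower. Nmrk2, a nicotinamide riboside kinase gene known from muscle, was at 0.245 and 0.241 CPM in MB, below the level of 3 counts, and at 19.6 and 29.6 CPM in MT (edgeR adjusted p = 0.000382). Nmnat3, the gene of the NMN adenylyltransferase assigned to mitochondria, had a log2FC of 2.79 (SE 0.82, adjusted p = 0.0382), at 1.23 and 1.08 CPM in MB and 10.4 and 5.47 CPM in MT. Nmnat2, which encodes a further NMN adenylyltransferase, was at 33.7 and 34.1 CPM in MB and 10.8 and 8.78 CPM in MT, a log2FC of -1.78 (SE 0.51, adjusted p = 0.035). For lactate, no gene of any of these lists was called by edgeR.

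The genes with the profile most like that of Hdac1 over the 6 libraries of cultured cells, out of 10262 compared by Pearson's r of log2(CPM + 1), were Suclg2 (r = 0.9991), Hnrnpa1 (r = 0.9983) and Ddx18 (r = 0.9983), and Gm10093 had r = 0.9807. The libraries share the split between MT and MB, so that these values describe the pattern only. Hnrnpa1, for an RNA-binding protein of splicing, was at 405 and 496 CPM in control MB, 509 and 549.7 CPM in treated MB, and 36.6 and 84.8 CPM in MT. Ddx18, for a helicase of ribosome assembly, was at 112 and 102 CPM in control MB, 117 and 121 CPM in treated MB, and 21.1 and 36.4 CPM in MT.

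The promoters of the candidates were compared by base composition, in RefSeq windows (GRCm38.p6) of 300 bases, from 250 before the start to 50 after it. Of the 10 genes, 8 had such a window, all but Hdac1 and Hdac3, with 10 windows among them. CpG-rich windows, taken as over 50% GC with an observed to expected CpG ratio over 0.6, were 6 of these 10 (60.0%), against 33.0% of all 32851 windows. The latter cover 27025 genes, expressed here or not, and a gene with several windows counts several times. Those of Crebbp (82.0% GC, ratio 1.02), Sirt1 (79.0%, 1.09), Ep300 (72.3%, 0.8) and Hdac2 (69.7%, 1.01) were CpG rich, as were both of Sirt3 (64.7% and 61.0%). Those of Kat8 (53.0% and 48.3%), Hdac8 (49.7%) and Sirt2 (50.0%) did not meet both criteria. Sirt2 and Sirt3, which were both above MB in each MT library, fell on different sides by GC alone. Sirt2 stood at the limit of 50% GC, and its ratio of 0.87 was above those of Sirt3 (0.79 and 0.82).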

How the data were processed

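RNA sequencing of GAS (3 libraries), MB, lactate-treated MB and MT (2 each) was used. Libraries started from poly(A) RNA for GAS and used Smart-seq2 for the cells. The authors trimmed the reads with Trim Galore 0.6.6, aligned them to mm10 with HISAT2 2.2.1 and counted them on genes with featureCounts (Subread 2.0.1), and deposited the raw counts, with no normalization. The annotation release and the handling of strand and of reads with several alignments are not given in the sources used here. Without molecular identifiers, reads are not independent molecules.

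Gene names, transcripts and exonic lengths came from GENCODE M21. CPM used TMM factors, computed for GAS and the cultured cells separately. Comparisons used edgeR 4.0.16 (R 4.3.3) with its filter on low counts, TMM, the quasi-likelihood test and no block, each on the libraries compared, and the script was tested on simulated data. Copies were transcripts aligned by blastn 2.17.0 on the same strand over at least 400 bases at 90% identity or more. The 10 genes and the lists were chosen with earlier results of these data known. From each list at most 4 genes are named, those called with the largest absolute log2FC whose groups did not overlap; Sirt4 to Sirt7, Aars and Aars2 were named in addition after their values were seen.

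Alternatives were RLE size factors, DESeq2 1.42.0, edgeR's likelihood ratio test, no filter, at least 10 counts in every library, a replicate block, a joint fit of the 6 cultured libraries, ribosomal RNA genes left out, reads of copies added and leaving out each replicate. A crossed block was chosen after seeing the data.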

Additional observations from a re-analysis of the deposited data

How the results depend on the processing

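Hdac1 was called lower in MT with RLE size factors, DESeq2, the likelihood ratio test, all 6 cultured libraries in one fit, ribosomal RNA genes left out and either MB replicate left out, with adjusted p of 0.0212 to 0.0497. The number of candidates called lower was 0 instead of 1 with no filter (adjusted p of Hdac1 0.0657), at least 10 counts in every library (0.064), the copy's reads added (0.0503) and the replicate block (log2FC -1.40, 0.0814), and 0 to 1 when replicates were left out in turn; the cause was not tested. The log2FC of Hdac1 stayed between -1.62 and -1.20 over its 14 alternatives. The labels do not say whether libraries with the same number share a culture, and 2 pairs are too few to treat them as paired here. Their deviations correlated at -0.128 for MT and MB and 0.7017 for lactate, and the block moved the calls over all genes from 1425 higher and 887 lower to 1447 and 824. With crossed numbers in the block, 1192 were higher, 867 lower and 0 candidates lower.

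Signs turned for values that were not called. With replicates left out in turn, the log2FC of MT over MB was -0.58 to 1.69 for Sirt1. That of lactate over control was -1.62 to 0.40 for Crebbp, -0.53 to 0.47 for Kat8, -0.06 to 0.42 for Hdac3, -0.24 to 0.68 for Hdac8, -1.56 to 1.28 for Sirt1, -0.37 to 0.33 for Sirt2 and -0.17 to 0.73 for Sirt3. With the replicate block Kat8 was at -0.01, and with RLE size factors and with DESeq2 Sirt2 was at 0.05. Sirt1 gave no value for lactate at 10 counts in every library, since 1 library had 9. No alternative called a candidate higher in MT or changed by lactate. Over all genes, leaving out MT replicate 1 gave 956 higher and 288 lower, and leaving out MT replicate 2 gave 1266 and 446.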
